A study of Arabidopsis thaliana with 28 samples.

Results

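Roots of Arabidopsis thaliana 24 h after a short drying treatment were compared with roots 6 h after it, using the 2 arrays labelled as roots at 24 h and the 2 labelled as roots at 6 h, which are 4 of the 28 arrays of the series. All plants were Col-0 (stock N1092), were stressed on day 16, and lost 10% of their fresh weight in a 15 min stream of dry air that began 3 h into the light period of a 16 h day. They then stayed in closed vessels, and roots and shoots were taken at 0.25, 0.5, 1, 3, 6, 12 and 24 h, with 2 arrays for each of the 14 combinations. Every group carries the drying treatment, and no untreated arrays are used here. The 24 h arrays lie 3 h after lights-on and the 6 h arrays 9 h after lights-on, so time after drying and time of day cannot be told apart. Whether the 2 arrays of a group stem from separate cultures is not given in the labels. The p-values therefore reflect no more than the scatter between replicate arrays, pooled over the 14 groups and possibly technical.

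A root that loses water shifts its transcripts within minutes, through abscisic acid and other stress signals, and many of these shifts are transient once water loss stops. Growth genes, such as those of ribosomes and the cytoskeleton, are commonly lowered during stress, and genes that break down stored or structural compounds are commonly raised. Root plastids are small and not green, yet they transcribe the same chromosome as chloroplasts. Part of the root transcriptome also follows the circadian clock.

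Values are MAS5 signals, a linear brightness scaled to a common mean on each array. Changes are log2 changes at 24 h minus 6 h, given ± their standard error (SE) from the limma fit (n = 2 arrays in each group). The SE uses a spread pooled over all 28 arrays, not that of the 4 root arrays alone. Adjusted p-values are Benjamini-Hochberg values over all 18190 tested probe sets, with 0.05 as the threshold. In bulk tissue, fewer cells of a type and less RNA per cell cannot be told apart. Root arrays had median signals of 43.1 to 46.7, and their replicates correlated with r of 0.976 to 0.985, with 0.983 at 24 h and 0.976 at 6 h. Replicate 2 of 6 h stood apart in its GAPDH 3′ to 5′ ratio, a sign of RNA integrity, at 1.69 against 0.922 to 1.26 on the 13 other root arrays. Its actin 3′ to 5′ ratio did not stand apart, at 2.15 within a range of 1.71 to 2.24 over the root arrays. Between the replicates, 351 probe sets (1.93%) lay at least 2-fold apart at 24 h and 564 (3.1%) at 6 h. The 9 measured light-harvesting and carbon fixation genes summed to 635 and 656 at 24 h and to 592 and 796 at 6 h in roots, against 27449 to 44960 over all shoot arrays, and none of the 9 passed the root test.

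In all, 1358 of 18190 probe sets (7.47%) differed between 24 h and 6 h in roots, 777 higher (4.27%) and 581 lower (3.19%) at 24 h. The count rests on 4 arrays: it was 481 without 24 h replicate 1, 600 without 24 h replicate 2, and 453 without 6 h replicate 2. The median change was 0.66 among the higher and -0.84 among the lower probe sets, and 169 and 205 of them changed by at least 1. Of 10017 genes with a named probe set, 663 (6.62%) passed, 387 higher (3.86%) and 276 lower (2.76%).

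Among the named genes with the largest rises, AT1G73120 had signals of 112 and 193 at 24 h, against 1.53 and 3.23 at 6 h. The change was 5.14 ± 0.49 (limma, adjusted p = 4.8e-06). The ranking required that the arrays of the 2 times not overlap. The 6 h signals are near the pseudocount of 1.93, and with the larger pseudocount of 13.4 the change was 3.35. GSTU20, a tau class glutathione transferase of the detoxifying enzyme family, had 271 and 196 at 24 h, against 86.5 and 62.3 at 6 h. It rose by 1.62 ± 0.17 (adjusted p = 1.1e-05). AT5G15950 had 240 and 246 at 24 h, against 30.8 and 42.9 at 6 h, and rose by 2.68 ± 0.21 (adjusted p = 4.9e-07).

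SWEET13 and SWEET14 belong to the SWEET clade that exports sucrose from cells. SWEET13 had 54.7 and 51.1 at 24 h, against 16 and 16.7 at 6 h, a rise of 1.58 ± 0.25 (adjusted p = 0.00085). SWEET14 had 25.2 and 31 at 24 h, against 2.65 and 4.25 at 6 h, a rise of 2.49 ± 0.36 (adjusted p = 0.00039), which was 1.3 with the larger pseudocount. The arrays of the 2 times did not overlap for either gene, which the ranking required of SWEET13. No other of the 15 tested SWEET genes passed, 2 higher and 0 lower in all, against 3.86% and 2.76% of all named genes. The family's median change was -0.04, against 0.0 over all probe sets. SWEET2, a vacuolar member, had 40.8 and 38.8 at 24 h, against 96.7 and 51.1 at 6 h (-0.8 ± 0.32, adjusted p = 0.14).

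Further large rises were those of AT1G74770, with 211 and 277 at 24 h against 70.9 and 42.9 at 6 h (2.09 ± 0.26, adjusted p = 0.0001), and of AT1G73600, with 130 and 182 at 24 h against 55 and 39.9 at 6 h (1.68 ± 0.25, adjusted p = 0.00043). AT5G62340 was the brightest of the ranked rises, with 823 and 808 at 24 h against 337 and 197 at 6 h (1.65 ± 0.29, adjusted p = 0.0018). AT1G09750 had 66.1 and 102 at 24 h against 33.5 and 19.9 at 6 h (1.59 ± 0.22, adjusted p = 0.00023). In these 4 genes both 24 h arrays exceeded both 6 h arrays, as the ranking required. The same held for 28% of all tested probe sets. AT5G62330 had 43.9 and 59.7 at 24 h against 15.9 and 1.71 at 6 h, so that its rise of 2.72 ± 0.46 (adjusted p = 0.0013) rested in size on 6 h replicate 2, and was 1.57 without it and 1.62 with the larger pseudocount.

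Of the 14 largest rises, 9 passed with each of the 4 arrays left out in turn: AT1G73120, GSTU20, AT5G15950, SWEET13, AT1G74770, AT1G73600, AT5G62340, AT1G09750 and AT5G62330. The remaining 5 were AT3G12900 (2.94), AT3G61930 (2.16), AT2G28780 (2.0), AT3G49190 (1.84) and AT2G37440 (1.78). AT3G12900 missed the threshold without 24 h replicate 2 (adjusted p = 0.14) and without 6 h replicate 1 (0.071). AT2G37440 missed it without 24 h replicate 2 (0.086) and without 6 h replicate 2 (0.11, a change of 1.0). AT2G28780 and AT3G49190 missed it without either 24 h array (0.076 to 0.11) or 6 h replicate 2 (0.21 for AT2G28780 and 0.24 for AT3G49190), and AT3G61930 without any 1 of the 4 arrays (0.058 to 0.16).

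**Figure D1:**
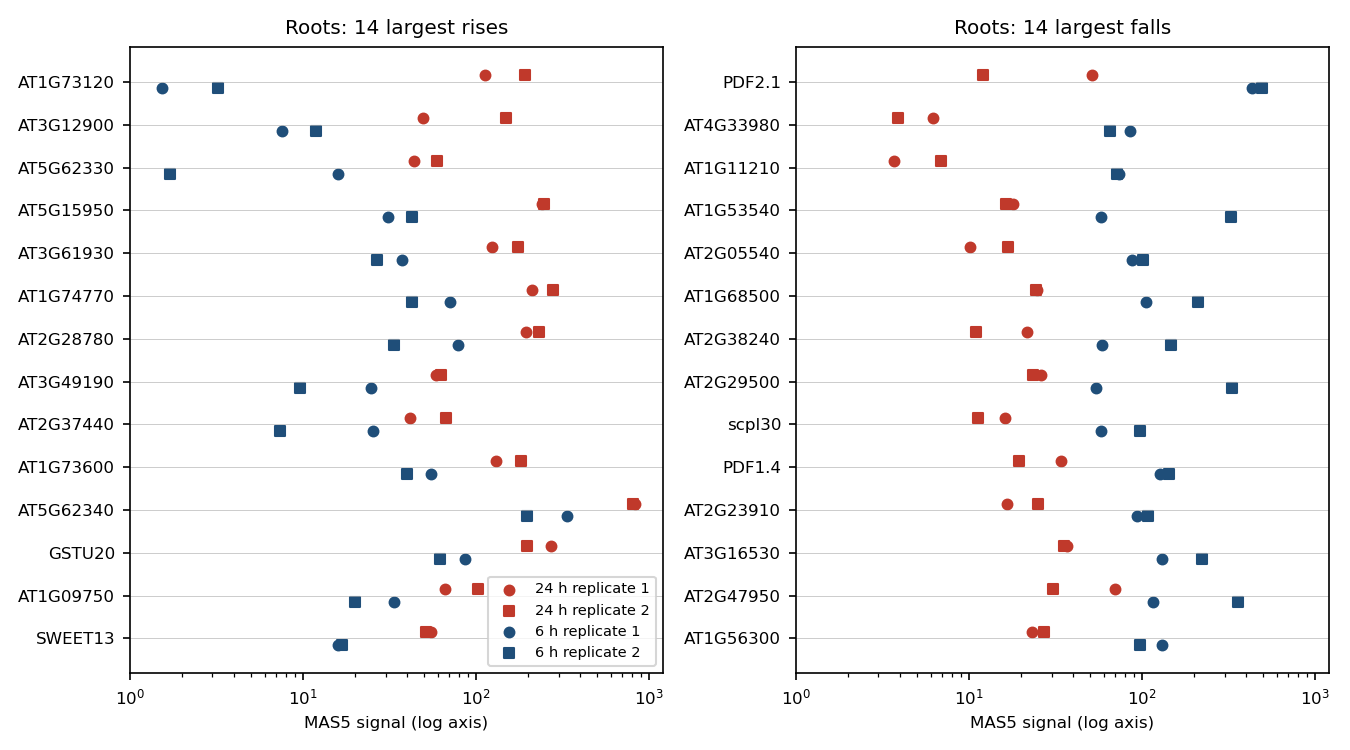
Signal on each of the 4 root arrays (log axis) for the named genes with the 14 largest rises and the 14 largest falls, 24 h in red and 6 h in blue, circles for replicate 1 and squares for replicate 2. The red and blue points of a gene do not overlap, as the ranking required, and replicate 2 of 6 h lies far above replicate 1 for AT1G53540 (328 against 57.9) and AT2G29500 (332 against 54.5).

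The largest fall among the 14 ranked was that of PDF2.1, a plant defensin, one of a family of small secreted antimicrobial peptides. It had 51.1 and 12.1 at 24 h, against 432 and 493 at 6 h, a change of -4.09 ± 0.65 (limma, adjusted p = 0.00092). A relative, PDF1.4, had 34.1 and 19.5 at 24 h, against 127 and 143 at 6 h (-2.3 ± 0.47, adjusted p = 0.0055). The low-molecular-weight cysteine-rich gene LCR69 had 920 and 675 at 24 h, against 1739 and 1797 at 6 h (-1.16 ± 0.22, adjusted p = 0.0028). Both 24 h arrays were below both 6 h arrays for these 3 genes, which the ranking required of PDF2.1 and PDF1.4. The other 5 tested members of that list, which was set by symbol, did not pass, among them PDF1.2 (0.27), PDF2.5 (0.52) and LCR68 (0.43). The list thus had 3 of 8 lower and 0 higher, against 2.76% and 3.86% of all named genes. PDF1A and PDF1B carry a like symbol but encode peptide deformylases, and had 0.16 and 0.07. PDF1.4 missed the threshold without 24 h replicate 2 (adjusted p = 0.075) or 6 h replicate 2 (0.055), and LCR69 without 24 h replicate 2 (0.052).

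COR27 and AT4G33980, its relative COR28, are evening genes that act in the clock and in cold responses. COR27 had 0.872 and 1.03 at 24 h, against 46.4 and 48.5 at 6 h (-4.1 ± 0.35, adjusted p = 1.3e-06). Its mean at 6 h was under the signal of 50 required for the ranking, its 24 h signals were below the pseudocount, and with the larger pseudocount the change was -2.08. AT4G33980 had 6.2 and 3.89 at 24 h, against 85.5 and 65.1 at 6 h (-3.48 ± 0.47, adjusted p = 0.00023), or -2.26 with the larger pseudocount. GI, another evening clock gene, had 182 and 185 at 24 h, against 331 and 314 at 6 h, with both 24 h arrays lower, but its change of -0.81 ± 0.27 did not pass (adjusted p = 0.081). These 3 genes have the clock time of their samples beside them, 3 h after lights-on at 24 h and 9 h at 6 h, and its part was not tested.

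AT1G11210 had 3.67 and 6.92 at 24 h, against 73.1 and 71.3 at 6 h (-3.4 ± 0.3, adjusted p = 1.9e-06, and -2.2 with the larger pseudocount). The serine carboxypeptidase-like gene scpl30 had 16.2 and 11.3 at 24 h, against 57.6 and 97.9 at 6 h (-2.31 ± 0.35, adjusted p = 0.00058). AT1G56300, of the DnaJ chaperone family, had 23.1 and 27.1 at 24 h, against 130 and 97.7 at 6 h (-2.09 ± 0.26, adjusted p = 9.1e-05). AT1G68500 had 24.8 and 24.4 at 24 h, against 105 and 210 at 6 h (-2.5 ± 0.32, adjusted p = 0.00011). The ranking required the 24 h arrays to be the lower ones for each of these 4 genes, as they were for 26.9% of all tested probe sets. Together with PDF2.1 and AT4G33980 these 4 genes are the 6 of the 14 largest falls that passed with each of the 4 arrays left out.

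The 8 others of the 14 lost their call without at least 1 array. The small heat shock protein genes AT1G53540 and AT2G29500 had 18 and 16.4, and 26 and 23.4, at 24 h. At 6 h replicate 1 had 57.9 for AT1G53540 and 54.5 for AT2G29500, and replicate 2 had 328 and 332. Their changes were -2.88 ± 0.6 (adjusted p = 0.0063) and -2.37 ± 0.62 (adjusted p = 0.024), and without 6 h replicate 2 they were -1.65 (0.13) and -1.09 (0.37). AT2G29500 also missed the threshold without either 24 h array (0.11 and 0.12). The 6 tested members of the small heat shock list summed to 152 and 159 at 24 h, and to 248 and 1090 at 6 h. The array with 1090 is the one with the high GAPDH ratio, while its actin ratio lay within the range of the root arrays. The part of RNA quality in the sum of 1090 was not tested.

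The remaining 6 were AT2G05540 (-2.67), AT2G38240 (-2.44), PDF1.4, AT2G23910 (-2.2), AT3G16530 (-2.17) and AT2G47950 (-2.1). AT2G05540 missed the threshold without 24 h replicate 1 (adjusted p = 0.066) or 6 h replicate 2 (0.05, above it before rounding), and so did AT2G23910 (0.072 and 0.056). AT2G38240 missed it without 24 h replicate 2 (0.14) or 6 h replicate 2 (0.18), and AT3G16530 without 6 h replicate 2 (0.095). PDF1.4 is given with the defensins. AT2G47950 lay at the threshold itself and missed it without either 24 h array (0.07 and 0.32) or 6 h replicate 2 (0.41).

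Genes of cytosolic ribosomal proteins, the protein part of the ribosome outside plastids and mitochondria, were higher at 24 h. Of 64 tested, 23 rose and 0 fell, against 3.86% higher and 2.76% lower over all named genes. The median change was 0.38, against 0.0 over all probe sets. Both 24 h arrays exceeded both 6 h arrays for 59 of the 64 (92.2%), against 28% of all tested probe sets. Summed over the 64 genes, the signal was 98089 and 91489 at 24 h, against 73899 and 76783 at 6 h. AT5G48760 had 552 and 502 at 24 h, against 305 and 372 at 6 h (0.64 ± 0.1, limma, adjusted p = 0.00081). AT2G32060 had 1312 and 1237 at 24 h, against 758 and 839 at 6 h (0.67 ± 0.12, adjusted p = 0.0021). AT4G15000 had 1605 and 1588 at 24 h, against 1105 and 1108 at 6 h (0.53 ± 0.1, adjusted p = 0.0035).

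These 3 genes, chosen after their values were seen, are the ones that passed with each array left out. The changes of the 23 were small, 0.38 to 0.7. Fewer passed with any 1 of the 4 arrays left out, as over all probe sets, and the median of the 64 then stayed between 0.3 and 0.45. In shoots 44 of the 64 were higher at 24 h, with a median of 0.55, where the named genes as a whole had 10.5% higher and 9.65% lower, 20.2% in all. The root change differed from the shoot change in 2 of the 64, both lower in roots, where it differed in 9.52% of all named genes, 5.36% higher and 4.16% lower.

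Transcripts of the plastid genome were lower at 24 h. Of 69 tested, 31 fell and 0 rose, against 2.76% lower and 3.86% higher over all named genes. The median change was -0.67, and both 24 h arrays were below both 6 h arrays for 54 (78.3%), against 26.9% of all tested probe sets. Summed over the 69, the signal was 15617 and 15089 at 24 h, against 22193 and 24214 at 6 h. Fewer passed with any 1 of the 4 arrays left out, as over all probe sets, and the median then lay between -0.81 and -0.48. No light-harvesting or carbon fixation gene of the nucleus passed, as given above, with a median of -0.18 over the 9.

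Members of each plastid function were among the 31. In photosystem I, 4 of 7 fell, among them psaA, a reaction centre subunit, with 158 and 228 at 24 h, against 446 and 440 at 6 h (-1.21 ± 0.17, limma, adjusted p = 0.00029). In photosystem II, 6 of 15 fell, and psbK had 181 and 174 at 24 h, against 332 and 424 at 6 h (-1.07 ± 0.15, adjusted p = 0.00023). In the NDH complex, which moves electrons around photosystem I, 4 of 10 fell, and ndhA had 89.4 and 93.5 at 24 h, against 212 and 211 at 6 h (-1.19 ± 0.14, adjusted p = 5.7e-05). The cytochrome b6f complex had 1 of 6, petB (-0.85), and the ATP synthase 3 of 6.

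Plastid genes of gene expression were lower too. Of the 4 subunits of the plastid RNA polymerase, 3 fell: rpoC1 had 134 and 143 at 24 h, against 276 and 272 at 6 h (-0.98 ± 0.17, limma, adjusted p = 0.0015), and rpoC2 and rpoB had -0.95 and -1.12. Of 15 plastid ribosomal proteins 7 fell, with a median of -0.52. The lowest value of the 31 was that of atpH, with 122 and 85.4 at 24 h, against 197 and 496 at 6 h (-1.6 ± 0.39, adjusted p = 0.018). The 2 arrays of 6 h lie far apart for atpH, and it missed the threshold without 6 h replicate 2 (-0.93, adjusted p = 0.27) or without either 24 h array (0.051 and 0.15). All other plastid genes named with a test here, psaA, psbK, ndhA and rpoC1, passed with each array left out. They and the function groups were picked with their values in view.

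Of 14 transcripts of the mitochondrial genome, 4 fell and 0 rose, against 2.76% lower and 3.86% higher over all named genes, with a median of -0.47, and the summed signal was 1419 and 1363 at 24 h, against 2101 and 2256 at 6 h. The cytochrome c maturation gene ccb382 had 393 and 423 at 24 h, against 770 on each array at 6 h (-0.91 ± 0.18, limma, adjusted p = 0.0043), and missed the threshold without 24 h replicate 1 (0.05, above it before rounding). The complex I genes nad4 (-0.65) and nad1 (-0.67) and the cytochrome oxidase gene cox1 (-0.49) were the others. Fewer passed without either 24 h array or 6 h replicate 2, as over all probe sets. With 1 of the 4 arrays left out the median lay between -0.53 and -0.39.

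**Figure D2:**
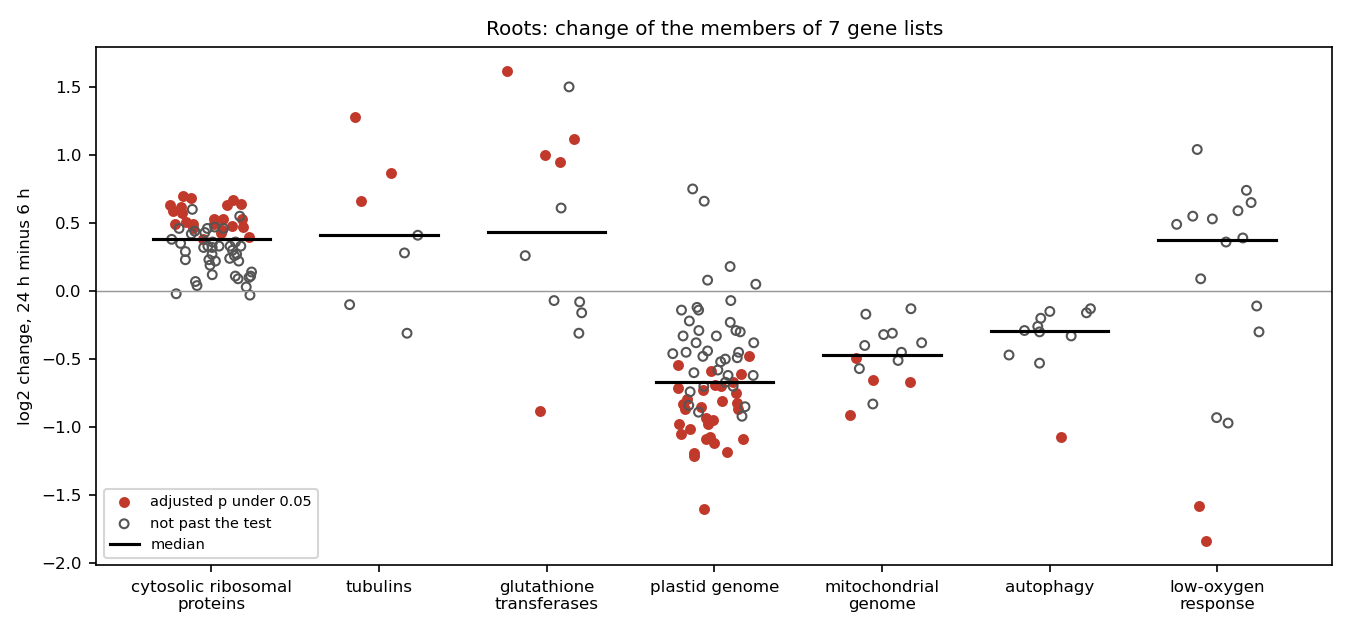
Log2 change at 24 h minus 6 h in roots for each tested member of 7 gene lists, filled red where the adjusted p was under 0.05 and open where it was not, with the list's median as a bar. Ribosomal protein genes lie mostly above 0 (median 0.38), plastid and mitochondrial transcripts mostly below 0 (medians -0.67 and -0.47), and low-oxygen genes on both sides.

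Genes that break down branched-chain amino acids and lysine, which plants raise when sugar is short, were lower at 24 h. Of 9 tested members of the list of dark and sugar starvation genes, 5 fell and 0 rose, against 2.76% lower and 3.86% higher over all named genes, with a median of -0.69. With any 1 of the 4 arrays left out, 2 fell. MCCA, a subunit of methylcrotonyl-CoA carboxylase in leucine breakdown, had 125 and 126 at 24 h, against 334 and 282 at 6 h (-1.27 ± 0.21, limma, adjusted p = 0.0013). AT4G33150, the lysine-degrading enzyme LKR/SDH, had 145 and 149 at 24 h, against 262 and 281 at 6 h (-0.88 ± 0.15, adjusted p = 0.0017). The arrays of the 2 times did not overlap, and both calls held with each array left out. MCCB, the other carboxylase subunit (-0.62), IVD, isovaleryl-CoA dehydrogenase (-0.78), and the aldehyde dehydrogenase ALDH7B4 (-0.71) made up the 5. Each of these 3 missed the threshold without any 1 of the 4 arrays: MCCB at adjusted p of up to 0.11, IVD at up to 0.15 and ALDH7B4 at up to 0.18.

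ATG8D, a ubiquitin-like protein of autophagosomes, had 77.9 and 79.5 at 24 h, against 171 and 164 at 6 h (-1.07 ± 0.13, limma, adjusted p = 7.4e-05). It passed with each array left out. No other of the 11 autophagy genes passed with all arrays, against 2.76% lower and 3.86% higher over all named genes. The median of the 11 was -0.29. The proline dehydrogenase gene AT5G38710, of proline breakdown, had 36.5 and 35.3 at 24 h, against 104 and 73 at 6 h (-1.23 ± 0.26, adjusted p = 0.0078), and missed the threshold without either 24 h array (0.054 and 0.057) or 6 h replicate 1 (0.084). AT1G59740, the nitrate and peptide family transporter NPF4.3, had 232 and 146 at 24 h, against 451 and 1090 at 6 h (-1.92 ± 0.31, adjusted p = 0.00097), and passed in each case.

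Of 7 tubulins, the subunits of microtubules, 3 rose and 0 fell, against 3.86% higher and 2.76% lower over all named genes, with a median of 0.41. TUB1 had 178 and 195 at 24 h, against 110 and 51.3 at 6 h (1.28 ± 0.27, limma, adjusted p = 0.007). TUA6 had 1203 and 1202 at 24 h, against 826 and 702 at 6 h (0.66 ± 0.15, adjusted p = 0.013). TUB5 had 211 and 214 at 24 h, against 143 and 92.9 at 6 h (0.87 ± 0.23, adjusted p = 0.024). Without 6 h replicate 2 none of the 3 passed limma's adjusted threshold, with 0.74 for TUB1 (adjusted p = 0.15), 0.54 for TUA6 (0.14) and 0.57 for TUB5 (0.28), and without 24 h replicate 2 none did (0.061 to 0.11). Without 24 h replicate 1, TUB1 passed (0.043), and TUA6 (0.081) and TUB5 (0.12) did not. The root change exceeded the shoot change in 4 of the 7 tubulins, against 5.36% of all named genes.

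Of 12 tau and phi glutathione transferases, 4 rose, GSTU20, GSTU23, GSTU26 and ATGSTF13, and 1 fell, GSTU16, against 3.86% higher and 2.76% lower over all named genes, with a median of 0.43. GSTU23 had 67.9 and 70.9 at 24 h, against 41.5 and 23 at 6 h (1.12 ± 0.23, limma, adjusted p = 0.0054), and 0.71 without 6 h replicate 2 (adjusted p = 0.11). GSTU16 had 21.1 and 15.9 at 24 h, against 28.8 and 43.4 at 6 h (-0.88 ± 0.24, adjusted p = 0.031). Fewer of the family passed without either 24 h array or 6 h replicate 2, as over all probe sets. With 1 of the 4 arrays left out the family's median lay between 0.3 and 0.65. Among glycosyltransferases, UGT72E1 (1.21) and UGT72E2 (0.86), which glucosylate lignin precursors, rose and UGT73C7 (-1.27) and UGT73B1 (-0.99) fell. These are 2 and 2 of 41, against 3.86% higher and 2.76% lower over all named genes. Without 6 h replicate 2 all 4 calls were lost, with 0.62 for UGT72E1 (adjusted p = 0.27), 0.57 for UGT72E2 (0.23), -1.01 for UGT73C7 (0.1) and -1.22 for UGT73B1 (0.081). UGT72E2 and UGT73B1 also missed the threshold without either 24 h array (0.058 to 0.35), UGT73B1 without 6 h replicate 1 (0.26), UGT72E1 without 24 h replicate 2 (0.17) and UGT73C7 without 24 h replicate 1 (0.057).

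Class III peroxidases, secreted enzymes that oxidise phenolic compounds in the wall, had 3 of 47 lower and 0 higher, against 2.76% lower and 3.86% higher over all named genes. The median change was -0.15, and with 1 of the 4 arrays left out it lay between -0.17 and 0.0. AT5G39580 had 66.7 and 59.6 at 24 h, against 256 and 260 at 6 h (-2.0 ± 0.45, limma, adjusted p = 0.01). AT2G37130 had 454 and 475 at 24 h, against 867 and 937 at 6 h (-0.95 ± 0.18, adjusted p = 0.0034), and passed with each array left out. AT5G39580 missed the threshold without either 24 h array (0.059 and 0.074) or 6 h replicate 2 (0.071). The remaining one was AT5G19890 (-1.68), with -0.83 without 24 h replicate 2 (0.35) and -1.27 without 6 h replicate 2 (0.24).

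Expansins, which loosen cell walls, had 2 of 16 higher and 1 lower, against 3.86% and 2.76% of all named genes. EXPB3 had 337 and 173 at 24 h, against 83.1 and 106 at 6 h (1.34 ± 0.35, limma, adjusted p = 0.024). EXPA15 had 181 and 97.9 at 24 h, against 65.4 and 65 at 6 h (1.01 ± 0.23, adjusted p = 0.0097). EXLB1 had 236 and 207 at 24 h, against 365 and 497 at 6 h (-0.94 ± 0.23, adjusted p = 0.015). The change of EXPA15 was 0.57 without 24 h replicate 1 (0.19) and it missed the threshold without 6 h replicate 2 (0.067), and EXPB3 was 0.87 without 24 h replicate 1 (0.3) and missed it without either 6 h array (0.14 and 0.072). EXLB1 missed it without either 24 h array (0.06 and 0.11) or 6 h replicate 2 (0.18).

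Of 6 classical dehydration genes, 0 rose and 0 fell in roots by limma's test at the adjusted threshold. Over all named genes 3.86% rose and 2.76% fell. The median of the 6 was -0.68. With quantile normalization 1 of the 6 passed, LTI30 (-1.65, adjusted p = 0.025). The dehydrin LTI30 had 601 and 878 at 24 h, against 1559 and 2526 at 6 h (-1.45 ± 0.44, adjusted p = 0.053). The dehydrin COR47 had 655 and 1022 at 24 h, against 1440 and 1386 at 6 h (-0.79 ± 0.54, adjusted p = 0.44). Both 24 h arrays were below both 6 h arrays for 4 of the 6, against 26.9% of all tested probe sets. In shoots 5 of the 6 were lower at 24 h, against 9.65% of all named genes. The root change exceeded the shoot change, by the test of the difference, in 2 of the 6, AT1G54410 and COR15B, against 5.36%. The zinc finger repressor STZ had 112 and 81.9 at 24 h, against 218 and 197 at 6 h (-1.09 ± 0.35, adjusted p = 0.062).

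The low-oxygen response genes, which roots raise when oxygen is short, showed no common direction between the times. Their 16 tested members summed to 5190 and 2799 at 24 h, and to 2980 and 5824 at 6 h, so that 1 array of each time was high and 1 was low. In 14 of the 16, replicate 1 exceeded replicate 2 at 24 h and replicate 2 exceeded replicate 1 at 6 h. AT5G10040, for example, had 206 and 39.1 at 24 h, against 10.6 and 241 at 6 h (0.74 ± 0.88, limma, adjusted p = 0.7). With all arrays 2 of the 16 passed as lower and 0 as higher, against 2.76% and 3.86% of all named genes. PDC2, pyruvate decarboxylase of ethanol fermentation, was 1 of these 2, with 189 and 126 at 24 h, against 461 and 674 at 6 h (-1.84 ± 0.39, adjusted p = 0.0069). It missed the threshold without 24 h replicate 2 (0.087) or 6 h replicate 2 (0.092), and AT2G15880 (-1.58) without any 1 of the 4 (0.12 to 0.18). The list's median was 0.38, and it was -0.31 without 24 h replicate 1, 0.81 without 24 h replicate 2, -0.56 without 6 h replicate 1 and 0.98 without 6 h replicate 2. The sign of the median thus depended on which array was left out.

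**Figure D3:**
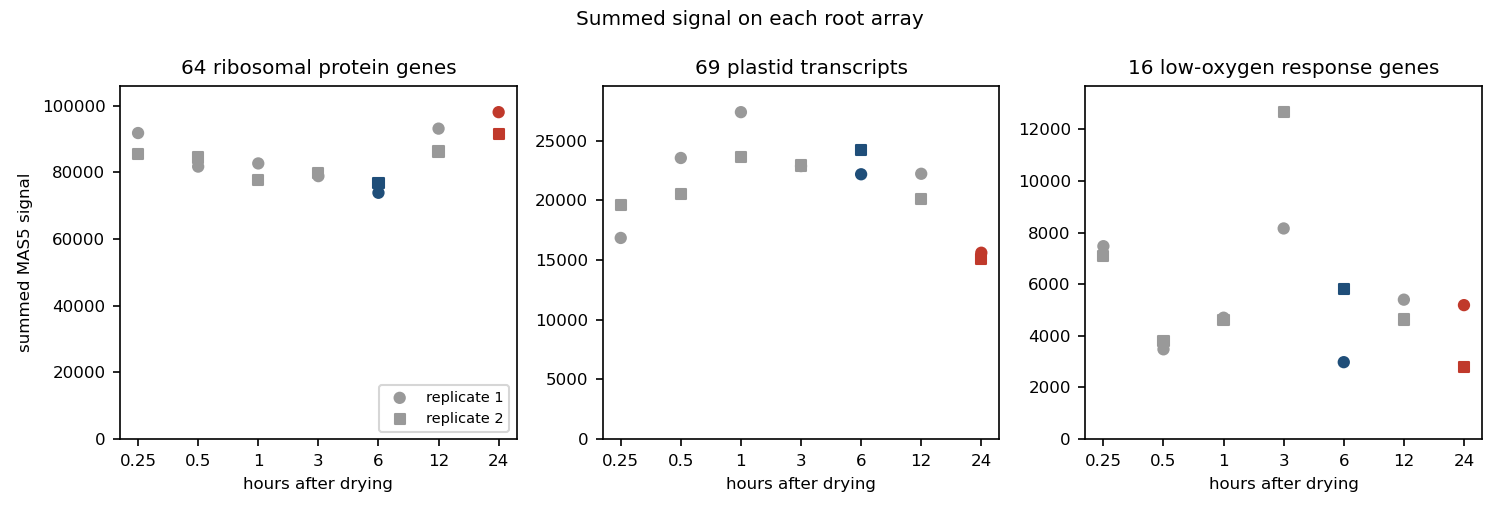
Summed signal on each of the 14 root arrays by hours after drying, for 64 ribosomal protein genes, 69 plastid transcripts and 16 low-oxygen response genes, with circles for replicate 1 and squares for replicate 2. The 24 h arrays (red) lie above the 6 h arrays (blue) in the ribosomal panel and below them in the plastid panel, and the 2 times overlap in the low-oxygen panel.

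At other times the same roots gave the following levels, where comparisons with 6 h or 24 h share arrays with the one above and are set side by side only. AT1G73120 had 146 and 61.3 at 0.25 h, 3.5 and 19 at 3 h and 8.83 and 8.07 at 12 h. PDF2.1 had 11.1 and 62.9 at 0.25 h, 141 and 172 at 3 h and 267 and 161 at 12 h. COR27 had 0.818 and 1.32 at 0.25 h, 8.27 and 12.3 at 3 h and 12.7 and 17 at 12 h. Each of the 3 thus lay at 0.25 h on the side of its 24 h level, and away from its 6 h level. Against 0.25 h, the 24 h values differed by 0.62 ± 0.49 for AT1G73120 (limma, adjusted p = 0.73), by -0.09 ± 0.65 for PDF2.1 (0.99) and by -0.05 ± 0.35 for COR27 (0.99), none past the threshold.

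The levels at 12 h differed from gene to gene. MCCA had 145 and 137 at 0.25 h, 189 and 305 at 3 h and 132 and 114 at 12 h, so its 12 h arrays lay near those of 24 h. SWEET13 had 47.4 and 46.7 at 12 h, also near its 24 h level. AT5G15950 had 45.6 and 50.7 at 12 h, near its 6 h level, and ATG8D had 139 and 137 at 12 h, between its levels at 6 h and 24 h. The 69 plastid transcripts summed to 16857 and 19613 at 0.25 h and 22235 and 20120 at 12 h. psaA had 275 and 355 at 0.25 h, and was lower at 24 h than at 0.25 h (-0.71 ± 0.17, limma, adjusted p = 0.029).

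Across all probe sets, roots at 6 h differed from 0.25 h in 1880 (10.3%) and roots at 24 h in 402 (2.21%), 91 of them higher (0.5%) and 311 lower (1.71%). For a comparison that shares no array with 24 h minus 6 h, 3 h minus 0.25 h in roots had a median of -0.26 among the 777 probe sets that rose, of 0.41 among the 581 that fell, and of 0.01 over all tested.

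**Figure D4:**
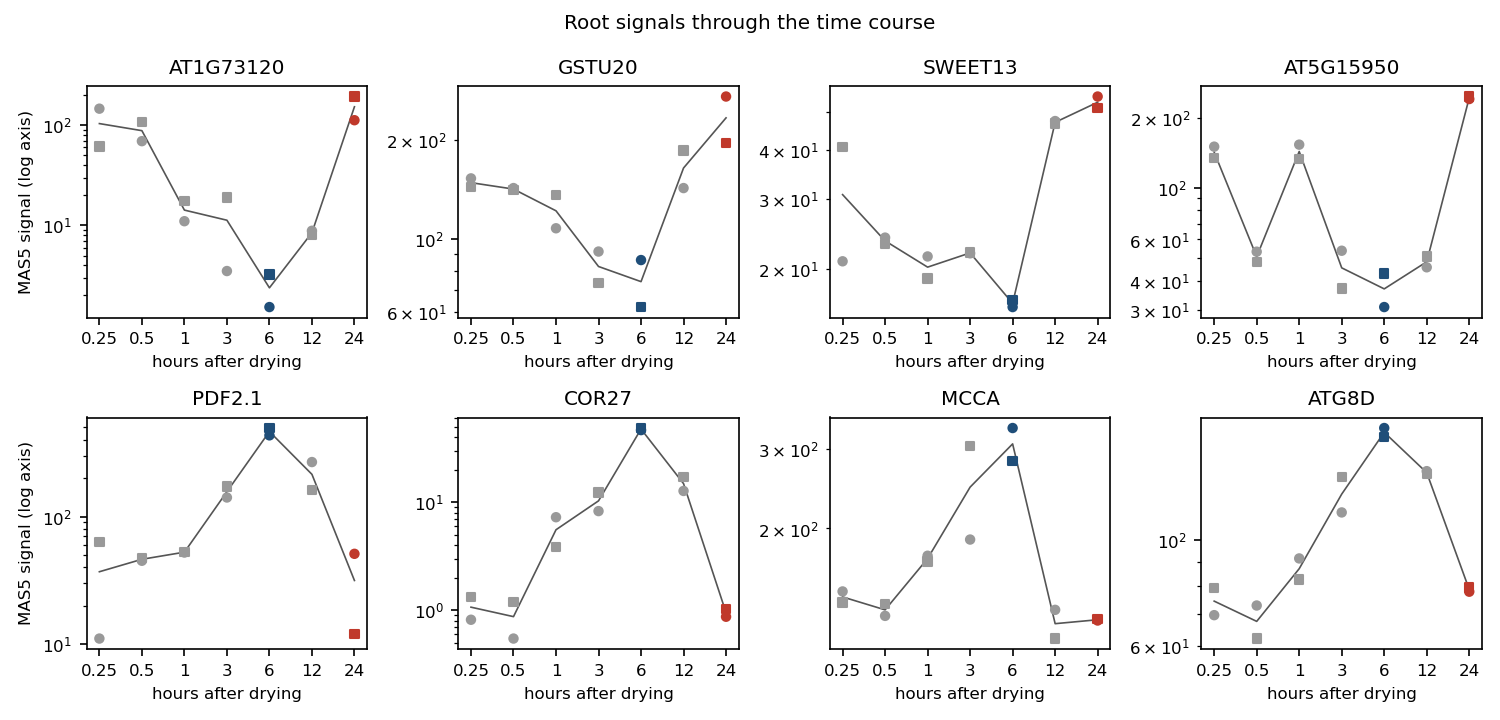
Root signals (log axis) of 8 genes by hours after drying, with circles for replicate 1, squares for replicate 2, a line through the means, 24 h in red and 6 h in blue. AT1G73120, GSTU20, SWEET13 and AT5G15950 are lowest on average at 6 h, and PDF2.1, COR27, MCCA and ATG8D are highest on average at 6 h.

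In shoots over the same interval 3960 probe sets (21.8%) changed, 2069 higher (11.4%) and 1891 lower (10.4%), and the root change differed from the shoot change in 1904 (10.5%), 1054 higher (5.79%) and 850 lower (4.67%). The probe sets that rose in roots had a median shoot change of 0.32, those that fell one of -0.34, and all tested one of 0.05. AT1G73120 was among the 5 named genes with the largest difference upward: it had 11.4 and 14.9 in shoots at 24 h, against 5.68 and 7.13 at 6 h, and the root change exceeded the shoot change by 4.29 ± 0.7 (limma, adjusted p = 0.00049). PDF2.1 was among the 5 downward, at -4.32 ± 0.92 (adjusted p = 0.0049), with shoot signals of 0.859 and 5.7 at 24 h, against 4.16 and 0.614 at 6 h, near the floor of the arrays.

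GSTU20 was bright in shoots, with 1320 and 1403 at 24 h, against 1359 and 1275 at 6 h, and its root change was larger by 1.57 ± 0.24 (limma, adjusted p = 0.00022). AT1G09750 fell in shoots, with 896 and 766 at 24 h, against 1255 and 1301 at 6 h, while it rose in roots, a difference of 2.22 ± 0.31 (adjusted p = 0.00011). The tubulin TUB5 likewise fell in shoots (-2.25) and rose in roots, a difference of 3.12 (adjusted p = 4.9e-06). Of the 69 plastid transcripts 17 had a lower change in roots than in shoots and 0 a higher one, against 4.16% and 5.36% of all named genes. In shoots 1 of the 69 rose and 1 fell, against 10.5% and 9.65% of all named genes, with a median of -0.1.

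The other large differences came mostly from the shoot change, with the root genes near their 6 h level. AT4G34950 had 29.9 and 18.4 in roots at 24 h, against 23.5 and 27.7 at 6 h, and its shoot change was -6.33. AT2G27420, of the cysteine protease family, had 5.46 and 4.28 in roots at 24 h, against 4.99 and 6.25 at 6 h, and its shoot change was 4.7. AT5G62360, a pectin methylesterase inhibitor gene, fell in both tissues, with 2.04 and 3.22 in roots at 24 h, against 33.2 and 23.4 at 6 h (-2.72 ± 0.62, limma, adjusted p = 0.011, or -1.37 with the larger pseudocount), and -7.46 in shoots. Its root call was lost without 24 h replicate 1 (0.094), 6 h replicate 1 (0.072) or 6 h replicate 2 (0.05, above the threshold before rounding).

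**Figure D5:**
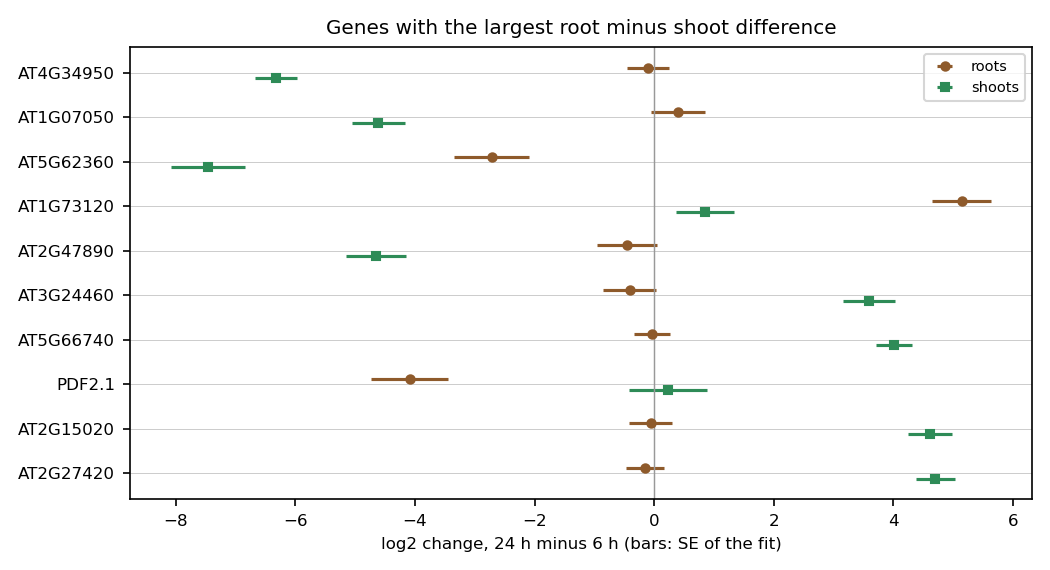
Log2 change at 24 h minus 6 h in roots (circles) and shoots (squares) for the 10 named genes with the largest root minus shoot difference, with bars for the SE of the fit. AT1G73120 (5.14) and PDF2.1 (-4.09) changed in roots, while of the other 8 genes AT5G62360 alone passed the test in roots.

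The 78 gene lists and families were 55 set at first and 23 added later. Among those added were the ribosomal, plastid genome, mitochondrial genome, tubulin, autophagy, class III peroxidase and small heat shock lists. Of the 78, 53 had at least 3 tested members. In 25 of these 53 no member passed the test in roots. They include early stress transcription factors, WRKY factors, auxin response genes, calmodulin-like genes, cellulose synthases and bZIP factors. Over all named genes 6.62% passed, so a short list without a call does not show that its genes were unchanged.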

How the data were processed

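The authors deposited a linear intensity for each of 22810 probe sets, made with MAS5 per the submitters' processing notes, with no version stated there. The mean after trimming 2% at each end was 100.01 on every array, which hides any change common to most transcripts, and no detection calls were used. From them log2(signal + 1.93) was computed (the pseudocount is the 10th percentile), which understates changes of dim transcripts. The 64 control probe sets were left out, and a probe set was kept where both arrays of 1 or more groups exceeded their 30th percentile (18190; 4556 removed). limma 3.58.1 in R 4.3.3 fitted all 14 groups with a trended prior and 14 residual degrees of freedom, two-sided, adjusted within each contrast. A simulation of the root contrast recovered 62% of changes of 2-fold and 89% of those of 4-fold, and 6.21% of its 161 calls were unchanged probe sets. It changed 200 of the 18190 probe sets and drew noise independently for each. Shifts shared by many probe sets of an array were not in it, so these shares need not hold for the real contrast. The number of arrays limits the precision.

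Gene names came from the platform annotation (13513 probe sets with 1 gene), updated through the TAIR10.1 table (13436 matched); a gene's brightest probe set was used. Lists by locus were written from general knowledge. Named are the 14 largest rises and falls (arrays separated, higher mean at least 50), the 5 largest tissue differences each way and up to 4 called members per list; other names were chosen after their values were seen. The members and lists were chosen with earlier results of these data known. Promoter sequences were not analysed here. Alternatives were the pseudocount, filter, quantile scaling, prior, array weights, replicate block, arrays in the fit, and each array left out.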

Additional observations from a re-analysis of the deposited data

Results flagged for a closer look

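Of the 82 genes named by rule, 36 passed the test of the root and shoot difference (limma, adjusted p under 0.05). This count is set in part by the naming, as the 5 largest differences each way were named because they passed it. The others were named for a root change past its test, which is 1 side of the same difference. Over all 10017 genes with a named probe set 9.52% passed, 5.36% higher and 4.16% lower. Values are the root change minus the shoot change, each at 24 h minus 6 h. The difference was positive for 20 genes, among the ranked ones AT4G34950 (6.22), AT1G07050 (5.0), AT5G62360 (4.74), AT1G73120 (4.29), AT2G47890 (4.19), AT1G56300 (3.02), AT3G49190 (2.71), AT5G62330 (2.52), AT1G09750 (2.22), AT1G74770 (1.66) and GSTU20 (1.57), and among list members AT2G15880 (3.45), TUB5 (3.12), SWEET14 (2.76), SCPL49 (1.99), COR27 (1.8), TUB1 (1.7), UGT72E1 (1.61), TET7 (1.27) and UGT72E2 (1.05). It was negative for 16 genes, among the ranked ones AT2G27420 (-4.85), AT2G15020 (-4.67), PDF2.1 (-4.32), AT5G66740 (-4.04), AT3G24460 (-3.99), PDF1.4 (-2.96), AT3G16530 (-2.38) and scpl30 (-1.77), and among list members AT5G39580 (-2.04), AT5G19890 (-2.02), AT1G59740 (-1.96), AT2G26690 (-1.48), EXLB1 (-1.43), GSTU16 (-1.35), psaA (-1.33) and nad1 (-0.84). Of these, AT1G07050 had root signals of 2.89 and 2.17 at 24 h, against 0.695 and 2.42 at 6 h, and shoot signals of 13.7 and 11.6 at 24 h, against 339 and 366 at 6 h. AT2G47890 had 159 and 189 in roots at 24 h, against 264 and 213 at 6 h, and 5.96 and 6.17 in shoots at 24 h, against 186 and 212 at 6 h. AT3G24460 had 109 and 104 in shoots at 24 h, against 4.97 and 9.91 at 6 h, and did not pass in roots (-0.41). AT2G15020 and AT5G66740 had root signals under 1 on all 4 arrays, and 281 and 311, and 63.9 and 74.4, in shoots at 24 h, against 9.92 and 10.6, and 1.17 and 4.29, at 6 h. AT1G56300 fell in both tissues, by 2.09 in roots and 5.11 in shoots. The explanation of these differences was not tested.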

How the results depend on the processing

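The count of 1358 root probe sets was 2083 with array weights and 467 with only the 4 arrays, where 194 rose and 273 fell so that falls became the larger share, against 777 and 581. With 1 root array left out it was 453 to 934 (254 to 491 higher, 190 to 443 lower), and with both second arrays left out, chosen after seeing the data, 265 (136 higher, 129 lower). The lower count was 922 with array weights and 927 when the 4 shoot arrays from 0.5 h and 1 h were dropped. Replicates of these shoot groups correlated with r of 0.953 and 0.955, and their spread enters the SE of the root changes. The root total was 1954 without them and 1771 with only the 14 root arrays. The root and shoot difference of 1904 was 1154 to 1715 with 1 array left out (652 to 933 higher, 502 to 816 lower) and 823 (456 and 367) without both second arrays. Ribosomal protein genes that rose numbered 4 with only the 4 arrays, 4 to 13 with 1 array left out and 4 without both second arrays, and plastid transcripts that fell 19, 13 to 30 and 12. Quantile normalization gave 1008 higher and 707 lower, a median of 0.01, and medians of 0.38 for ribosomal proteins, -0.69 for plastid transcripts and 0.44 for tubulins. Replicate numbers did not pair the roots: the deviations of 24 h and 6 h arrays correlated at -0.227, and 2 of 21 pairs of root groups exceeded 0.1. The replicate block gave 1260 calls (721 higher, 539 lower), and the crossed block 1332. Negative root changes of 5 genes turned to 0 or above, of which AT2G26690 alone had passed. AT4G34950 had -0.43 without 24 h replicate 1 and turned (0.21 without 24 h replicate 2, 0.0 without 6 h replicate 2, 0.32 without both second arrays), as did AT2G15020 (-0.14 without 6 h replicate 1, 0.01 without 6 h replicate 2, 0.0 without both), AT5G66740 (-0.11, 0.05 and 0.05 in the same order), and, without both, AT2G27420 (0.09) and AT2G26690 (0.09). The causes were not tested. Some of the 82 named genes, such as AT4G34950, were named only for the tissue difference and had no root call. They count below as keeping their side of the threshold. No other alternative turned a change of the 82 named genes. With quantile normalization and with array weights, 82 of 82 kept their side of the threshold, but with only the 4 arrays 40 of 82 did. Part of the 82 lost theirs with any 1 of the 4 arrays left out. Most lost it without 6 h replicate 2, and likewise without both second arrays.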
